A study of Mus musculus with 8 samples.

Results

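Freshly isolated splenic stroma of mice without the lymphotoxin beta receptor (LTbR-KO, genotype LTbR-/-) was set against splenocytes of wild type mice (WT, genotype LTbR+/+), both of strain C57BL/6, to find which stromal transcripts stand above the splenocyte level when the receptor is missing. The comparison rests on 4 of the 8 arrays of the series, 2 of LTbR-KO stroma and 2 of WT splenocytes. It covers the 11396 of 24613 probes that were detected (detection p under 0.05, against the negative controls of the array) on both arrays of at least 1 of these groups. Spleens had been rubbed over a mesh, so the stroma is the tissue that stayed on it and the splenocytes are the cells in the wash. WT stroma, with 2 arrays prepared like the LTbR-KO stroma, serves here to place the LTbR-KO values, and cultured WT stroma only enters the estimate of the spread. LTbR-KO splenocytes are not analysed here, so the difference between LTbR-KO stroma and WT splenocytes holds both the fraction and the genotype, and these cannot be told apart in it. The difference between LTbR-KO and WT stroma is the test of how the comparison with splenocytes changes with genotype, since the splenocyte values cancel. The deposited design text describes the 2 arrays of a group as technical replicates, whereas a legend of the study describes them as biological ones. Every p-value below is thus taken over arrays, whose scatter may hold no difference between animals. Whether animals were pooled is not given in the sources used here.

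LTbR is the receptor through which surface lymphotoxin on lymphocytes and inducer cells acts on stromal cells, and it drives chemokines and adhesion molecules through both NF-kB pathways. The stroma of the spleen is built of fibroblastic reticular cells that hold up the white and red pulp, smooth muscle of the trabeculae and arteries, pericytes, and the endothelium of arterioles and sinuses. Splenocytes are mainly lymphocytes, with erythroid and myeloid cells.

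All levels below are log2 intensities after background correction and quantile normalization, and a difference is LTbR-KO stroma minus splenocytes on that scale unless another pair is named. The Ltbr probe itself read 6.82 and 7.18 in LTbR-KO stroma, 6.44 and 6.80 in WT stroma and 5.41 and 5.64 in splenocytes. The exons that the knockout removes and the position of the probe are not given in the sources used here, so this level is no check of the genotype. Median bead signals before normalization lay between 57.0 and 60.2 on the 4 arrays compared, and 10587 to 11183 probes were detected on each. Replicate arrays correlated at 0.983 in LTbR-KO stroma and 0.992 in splenocytes, as a description over the tested probes. The stromal markers except Pecam1 and the T cell markers went with the labels of the fractions, but not all B cell markers did. Pdgfrb, Col1a2, Col3a1, Cdh5, Acta2 and Myh11 were all higher in LTbR-KO stroma, while Pecam1, which platelets and leukocytes also carry, did not pass the test. The T cell markers Cd3e, Cd3g and Cd2 were lower in LTbR-KO stroma. The B cell markers Cd79a and Ms4a1 were not called, and their values are given below. RNA of another tissue was present as well. The pancreatic enzyme genes Cpa1 and Amy2a5 were at 9.05 and 8.91, and at 13.03 and 12.99, in LTbR-KO stroma, against 7.08 and 6.89, and 10.38 and 10.52, in splenocytes. In bulk tissue, fewer cells of a type and less RNA per cell cannot be told apart.

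Of the 11396 probes, 2577 were higher and 3312 lower in LTbR-KO stroma at an adjusted p under 0.05 (limma, Benjamini-Hochberg), which is 22.6% and 29.1%, and 5507 did not pass. The rises were fewer but reached further. Over 8-fold, 229 probes were higher and 45 lower, and over 16-fold 100 were higher and 5 lower. Through LTbR-KO stroma alone 1004 probes entered the test, through splenocytes alone 1217, and 9175 were detected on all 4 arrays. Counts of genes below use the brightest probe of each of 8390 named genes, of which 25.3% were higher and 24.3% lower, with a median difference of -0.0009. Among the 7021 named genes detected on all 4 arrays, 21.2% were higher and 24.3% lower. In WT stroma against the same splenocytes 26.6% of the 8390 genes were higher and 29.8% lower. Between LTbR-KO and WT stroma 5.82% were higher and 7.47% lower. Both comparisons with splenocytes share the splenocyte arrays, so their values are given side by side only. A gene that entered the test through the group where it is high had to differ, so list counts are followed by the count among members detected on all 4 arrays where these are fewer.

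**Figure D1:**
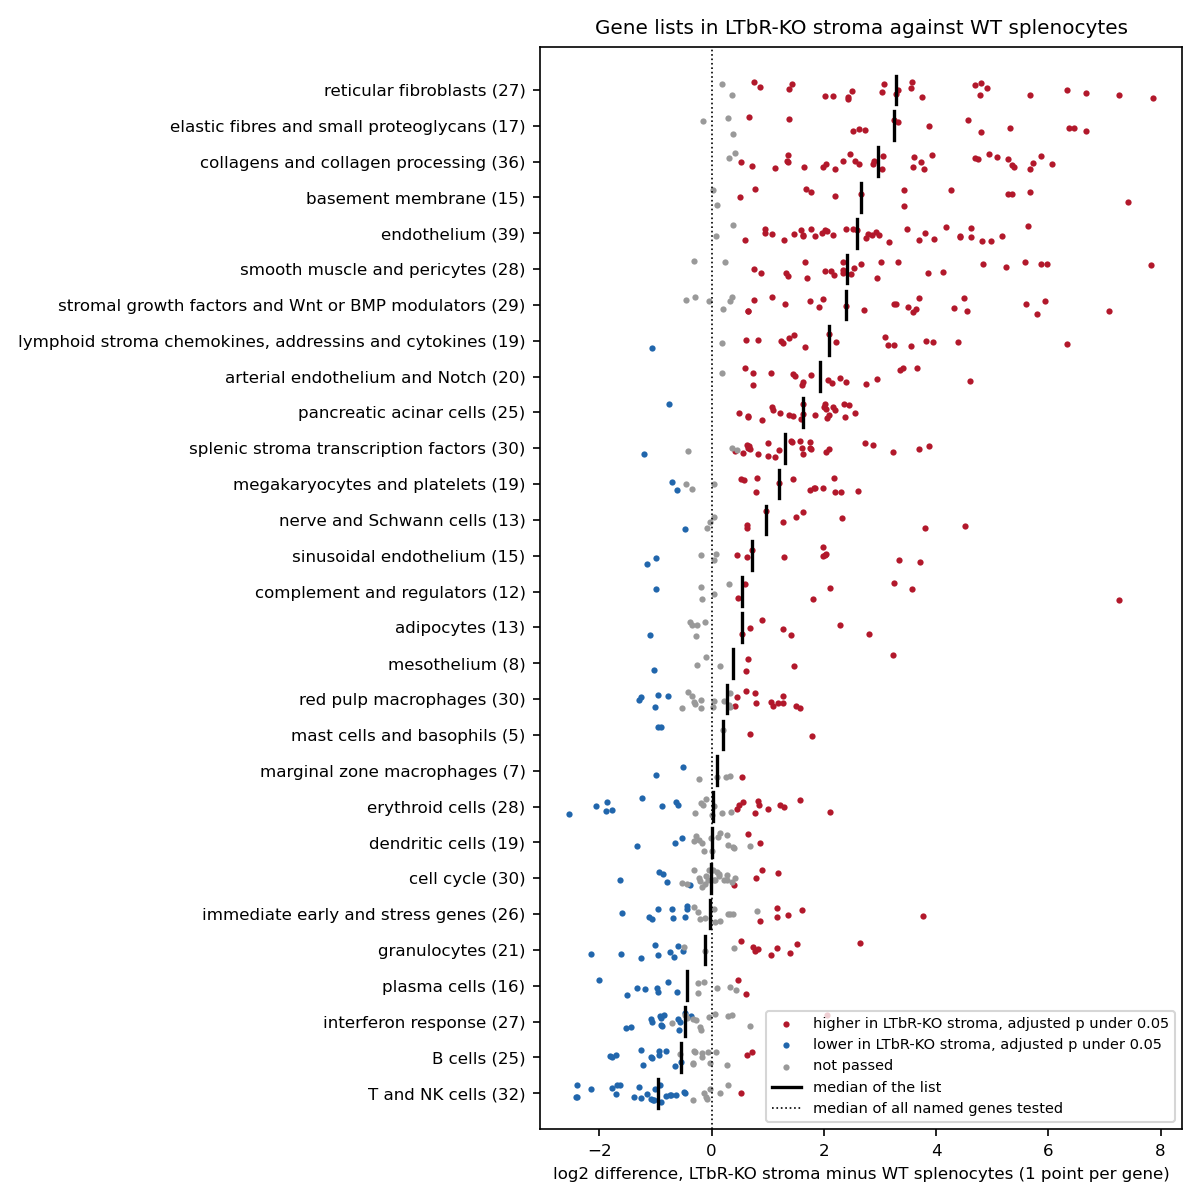
Log2 difference of LTbR-KO stroma minus WT splenocytes for the tested members of 29 gene lists, with the number of genes tested in brackets, ordered by list median (black bars). Matrix, smooth muscle and endothelial lists lie almost wholly to the right of 0, except that of sinusoidal endothelium, which is more mixed. Lymphocyte lists lie mostly to the left, and erythroid, dendritic cell and cell cycle lists around 0.

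The genes of reticular fibroblasts stood far above splenocytes in LTbR-KO stroma. Of 38 listed genes 34 had a probe and 27 were tested, of which 25 were higher, none lower and 2 not called, with a median difference of 3.29. Mgp, a matrix protein that keeps tissue from calcifying, read 12.33 and 12.35 in LTbR-KO stroma and was not detected in splenocytes (4.53 and 4.43), at least 178-fold apart (adjusted p = 2.81e-10). Here and below, "at least" sets the mean of the group that measured the probe against the lowest detectable signal of the arrays that did not. Serping1, the inhibitor of the complement protease C1, was at least 139-fold higher, with 12.03 and 11.95 in LTbR-KO stroma and 4.91 and 4.56, not detected, in splenocytes. Decorin (Dcn), a small proteoglycan that binds collagen fibrils, had 11.42 and 11.30 in LTbR-KO stroma and 4.51 and 4.87 in splenocytes, of which 1 array detected it. The mesenchymal receptor Pdgfra, with 9.40 and 9.53 against 4.58 and 4.80 (not detected), was at least 24.2-fold higher. The pericyte and fibroblast receptor Pdgfrb read 6.83 and 6.89 in LTbR-KO stroma and 4.84 and 4.83 in splenocytes, 1 array of which detected it, a difference of 2.02 ± 0.14 (SE). All 5 genes entered the test through LTbR-KO stroma alone, so the distance between the groups follows from how they were chosen. Of the 11 members detected on all 4 arrays, 10 were higher and Pdpn was not called. Pdpn, podoplanin or gp38, which marks the T zone reticular cells, read 6.11 and 6.26 in LTbR-KO stroma and 5.53 and 6.45 in splenocytes, so that the groups overlapped. Its difference was 0.19 with a 95% interval from -0.42 to 0.80 and turned to -0.27, without a call, when splenocyte replicate 1 was left out, while WT stroma, at 6.91 and 7.48, was above LTbR-KO stroma by 1.01 (-1.01 on the log2 scale for LTbR-KO minus WT, adjusted p = 0.0367).

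Against WT stroma the fibroblast list was split. It had 5 members higher and 8 lower in LTbR-KO than in WT stroma, with a median of -0.08, and in WT stroma 27 of 27 members were above splenocytes with a median of 3.31. The chemokines Ccl11 and Ccl8, which attract eosinophils and monocytes, were among the 5. Ccl11 read 6.79 and 6.97 in LTbR-KO stroma, 4.69 and 5.26 in WT stroma and 4.36 and 4.41 in splenocytes, where it was not detected, and Ccl8 read 6.65 and 6.89, 5.07 and 5.40, and 4.41 and 4.28 in the same order. LTbR-KO stroma thus exceeded WT stroma by 1.90 ± 0.20 for Ccl11 and by 1.54 ± 0.17 for Ccl8 (SE, adjusted p = 0.000193 and 0.000283). Mgp, Dpt and Fbln1 were the other members higher in LTbR-KO than in WT stroma.

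**Figure D2:**
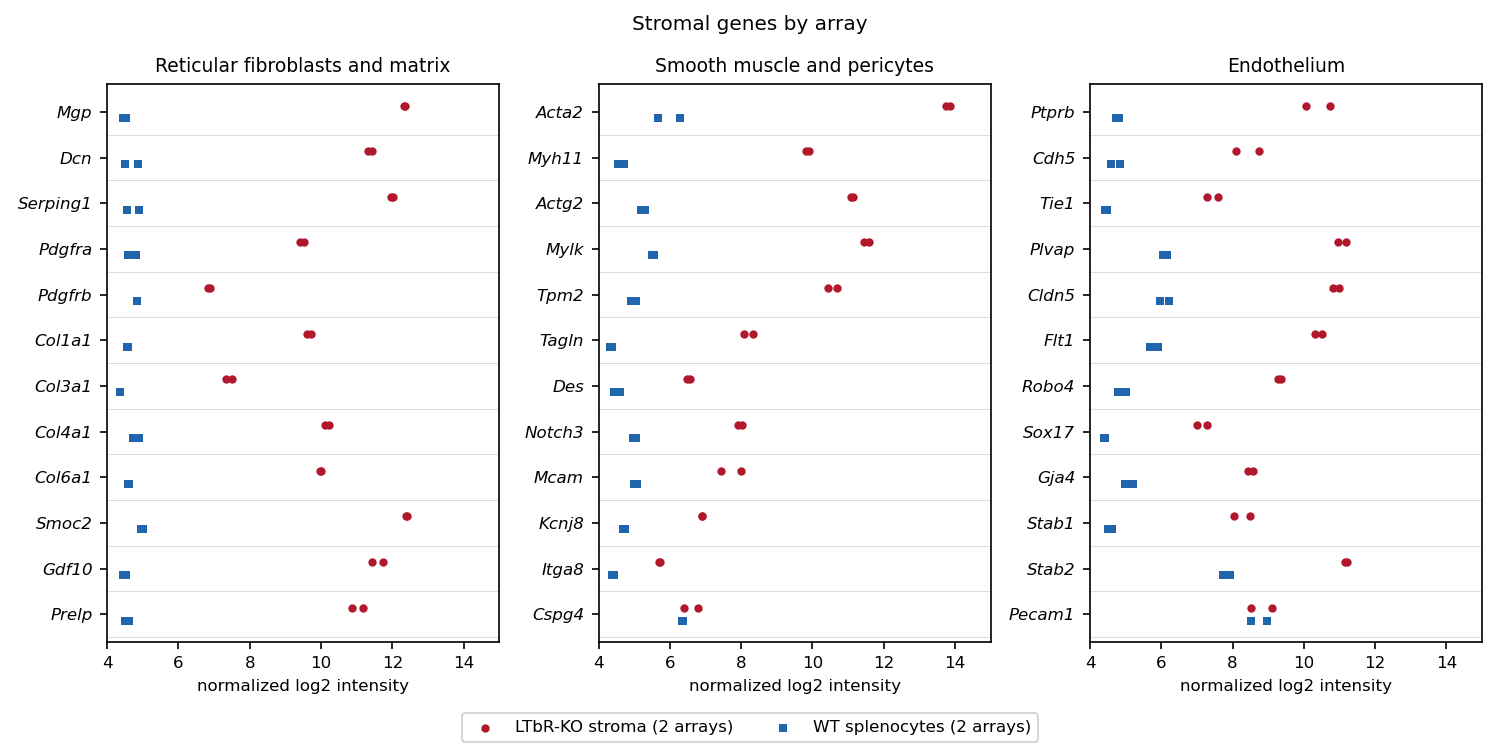
Normalized log2 intensity of 36 stromal genes on each of the 2 LTbR-KO stroma arrays (circles) and the 2 WT splenocyte arrays (squares). The genes were picked with their values known and several were not detected in splenocytes, so the distance between the groups follows from the choice. The groups overlap for Pecam1 and lie close together for Cspg4, a pericyte proteoglycan that did not pass the test.

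Collagen genes and the enzymes that process collagen rose as widely. Of 46 listed genes 36 were tested, 34 were higher and none lower, with a median of 2.97, and the 13 members detected on all 4 arrays were all higher. Timp3, an inhibitor of matrix proteases bound to the matrix, read 11.32 and 11.08 in LTbR-KO stroma and 5.41 and 4.87 in splenocytes (6.06 ± 0.20). The collagen chaperone Serpinh1 had 11.13 and 11.12 in LTbR-KO stroma and 5.22 and 5.29 in splenocytes (5.88 ± 0.14), and the cross-linking enzyme Loxl1, not detected in splenocytes, was at least 43.1-fold higher. Between the stromas, 2 members of the list were higher in LTbR-KO and 14 lower. The fibrillar chain Col3a1 was higher in LTbR-KO stroma (7.50 and 7.34) than in WT stroma (6.70 and 6.73), by 0.71 ± 0.15 (adjusted p = 0.011), whereas Col6a1, of the beaded filaments, was lower in LTbR-KO than in WT stroma, with means of 9.98 and 11.01 (-1.03 ± 0.14, adjusted p = 0.00116). Col1a1 differed between the stromas by 0.21 (95% interval -0.19 to 0.60). Neither Col1a1, Col3a1 nor Col6a1 was detected in splenocytes.

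Basement membrane and elastic fibre genes followed. In the basement membrane list 13 of 15 tested members were higher and none lower, with a median of 2.65, and 7 of the 9 detected on all 4 arrays were higher. Smoc2, a calcium-binding matrix protein, averaged 12.40 in LTbR-KO stroma and 4.98 in splenocytes, detected on all 4 arrays, a difference of 7.42 ± 0.15, 172-fold. Its splenocyte level was close to the lowest detectable signal of the splenocyte arrays (4.91 and 4.82), so the fold is given with that limit. Lama4, a laminin chain of vessels, and Npnt, an integrin ligand, were not called, with differences of 0.09 (95% interval -0.27 to 0.45) and 0.02 (-0.39 to 0.42). Of the elastic fibres and small proteoglycans 14 of 17 were higher, none lower, with a median of 3.25, but 13 of the 17 entered the test through LTbR-KO stroma alone, and of the 4 detected on all 4 arrays only elastin was called. Elastin (Eln) had 8.04 and 8.21 in LTbR-KO stroma, 10.15 and 10.45 in WT stroma and 4.92 and 4.84 in splenocytes. Elastin was 9.52-fold above splenocytes, whose level was again close to the lowest detectable signal, and 4.50-fold below WT stroma (-2.17 ± 0.15, adjusted p = 2.44e-05). Prelp, a proteoglycan that anchors basement membranes, was at least 70.7-fold above splenocytes and differed from WT stroma by -0.11 (95% interval -0.48 to 0.25).

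Growth factors and modulators of Wnt and BMP signalling were higher in 23 of 29 tested genes of 58 listed, with none lower and a median of 2.39, and in 9 of the 15 detected on all 4 arrays. Gdf10, a BMP family member, read 11.43 and 11.74 in LTbR-KO stroma and was not detected in splenocytes (4.46 and 4.53), at least 105-fold apart. Ccn2, the connective tissue growth factor, was at least 45.5-fold higher. Gas6, the ligand of the receptors Axl and Mertk, was 55.7-fold higher, with 11.25 and 11.33 in LTbR-KO stroma and 5.49 and 5.49 in splenocytes. None of these 3 passed the test between LTbR-KO and WT stroma, with 95% intervals of -0.42 to 0.49 for Gdf10, 0.01 to 1.07 for Ccn2 and -0.42 to 0.30 for Gas6. Vegfa, the growth factor of blood vessels, lay between the other samples, at 8.77 and 9.17 in LTbR-KO stroma, 9.86 and 9.89 in WT stroma and 5.88 and 5.57 in splenocytes. The growth factor genes Igf1 (-0.29, 95% interval -0.61 to 0.02) and Tgfb1 (-0.46, -0.99 to 0.08), which leukocytes also express, were not called.

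Smooth muscle and pericyte genes stood well above splenocytes. Of 44 listed genes of smooth muscle and pericytes 38 had a probe and 28 were tested, with 26 higher, none lower and a median of 2.42, and 14 of the 16 detected on all 4 arrays were higher. Smooth muscle actin (Acta2) read 13.75 and 13.87 in LTbR-KO stroma and 6.28 and 5.66 in splenocytes, 229-fold apart (7.84 ± 0.20, adjusted p = 1.26e-09). The myosin light chain kinase Mylk had 11.45 and 11.58 in LTbR-KO stroma and 5.56 and 5.50 in splenocytes, and the enteric actin Actg2 had 11.08 and 11.15 against 5.30 and 5.19. The smooth muscle myosin heavy chain Myh11, at 9.83 and 9.91, was not detected in splenocytes and was at least 32.0-fold higher. These 4 genes of the contractile apparatus were named for a large rise or for absence from splenocytes, so the distance follows from the choice. Cspg4, a pericyte proteoglycan, and Pdlim7, a scaffold of actin fibres, were the members not called, at 0.24 (95% interval -0.13 to 0.62) and -0.31 (-0.70 to 0.07). Without LTbR-KO stroma replicate 2, Pdlim7 was called lower (-0.55, adjusted p = 0.025).

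Many of these genes were nevertheless below their level in WT stroma. Between LTbR-KO and WT stroma 18 of the 28 genes were lower and none higher, with a median of -0.69, against 7.47% lower among all named genes. Myh11 read 10.99 and 10.86 in WT stroma, 2.08-fold above LTbR-KO stroma (-1.06 ± 0.14, adjusted p = 0.00108), and Actg2 12.26 and 12.27, 2.21-fold above it (-1.15 ± 0.14, adjusted p = 0.000572). For Acta2, at 14.53 and 14.31 in WT stroma, LTbR-KO minus WT was -0.61 and did not pass (adjusted p = 0.0698). The summed intensity of the 28 genes was 32800 and 34900 in LTbR-KO stroma, 57600 and 54300 in WT stroma and 2670 and 2730 in splenocytes. This sum is linear, so bright members such as Acta2 weigh most in it. Lymphocyte, granulocyte and pancreatic transcripts were higher in LTbR-KO than in WT stroma, as given below, and their part in the lower stromal levels was not tested.

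To show the regulatory sequence of this list, the promoter windows of RefSeq (mouse build GRCm38.p6, 250 bases before to 50 after the start site) were searched on both strands for the CArG box, the motif bound by serum response factor, which drives contractile genes. Windows were found for 24 of the 28 tested genes, and 2 of these genes (8.33%) had an exact match in any of their windows. Among all 32851 windows, counted singly, 1.63% held a match, so this share has another unit than that of the genes. Some other lists, counted by gene as well, had similar shares and others had none. The share was 8% of the immediate early and stress genes (2 of 25 genes with a window). It was 9.09% of the basement membrane genes (1 of 11) and 7.14% of the plasma cell genes (1 of 14). No match was found in the reticular fibroblast (0 of 19), collagen (0 of 27) and arterial endothelium and Notch lists (0 of 17). Counts this small do not show whether the share is particular to this list. A match is a description of the sequence, and its absence says only that the letters are not in the window. The 2 genes were Vcl (vinculin, which links actin to adhesions), in chr14:20929148-20929447 on the plus strand, and Fhl1 (a LIM domain protein of muscle), in chrX:56779433-56779732 on the plus strand. Capitals mark the CArG box, which begins 227 bases before the start site in Vcl and 102 bases before it in Fhl1.
Vcl: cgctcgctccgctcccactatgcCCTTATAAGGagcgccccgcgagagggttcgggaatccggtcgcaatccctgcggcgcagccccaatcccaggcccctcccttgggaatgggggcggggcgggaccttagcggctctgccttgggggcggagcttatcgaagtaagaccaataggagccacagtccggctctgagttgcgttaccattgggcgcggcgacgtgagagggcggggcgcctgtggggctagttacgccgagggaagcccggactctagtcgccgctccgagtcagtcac
Fhl1: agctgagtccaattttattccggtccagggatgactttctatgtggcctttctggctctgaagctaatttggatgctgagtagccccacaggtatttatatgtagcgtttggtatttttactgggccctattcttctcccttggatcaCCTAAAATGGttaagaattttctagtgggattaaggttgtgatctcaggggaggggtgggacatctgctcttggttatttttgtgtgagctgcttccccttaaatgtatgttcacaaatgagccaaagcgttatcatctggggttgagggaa
Vcl read 8.51 and 9.45 in LTbR-KO stroma and 6.40 and 6.59 in splenocytes (2.49 ± 0.25). Fhl1 read 9.60 and 9.80 in LTbR-KO stroma and 4.87 and 4.88 in splenocytes, of which 1 array detected it (4.83 ± 0.16). Both genes were thus higher in LTbR-KO stroma, as were 24 other members of the list.

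Endothelial genes were higher almost without exception. Of 54 listed genes 39 were tested, 37 were higher and none lower, with a median of 2.60, and 16 of the 18 detected on all 4 arrays were higher. The endothelial phosphatase Ptprb read 10.74 and 10.06 in LTbR-KO stroma and 4.82 and 4.73, not detected, in splenocytes, at least 46.4-fold apart. Ramp2, part of the adrenomedullin receptor, was 36.2-fold higher and Plvap, which forms the diaphragms of fenestrated endothelium, 31.4-fold. The junction protein VE-cadherin (Cdh5) had 8.10 and 8.75 in LTbR-KO stroma and 4.60 and 4.86 in splenocytes, 1 of which detected it (3.70 ± 0.20). The 2 members not called were Icam2 (0.39, 95% interval 0.04 to 0.73, adjusted p = 0.0575, which passed at 0.0311 with a larger offset) and Pecam1 (0.07, -0.44 to 0.58), both also carried by blood cells. Against WT stroma 26 of the 39 were lower in LTbR-KO stroma and none higher, with a median of -0.74. Summed intensities were 25000 and 22500 in LTbR-KO stroma, 34100 and 33700 in WT stroma and 3580 and 3500 in splenocytes.

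Genes of arterial endothelium and Notch signalling gave 19 higher of 20 tested, none lower, and a median of 1.93, with 10 higher of the 11 detected on all 4 arrays. The gap junction gene Gja1 (connexin 43) and the co-receptor Nrp1 led, at 4.61 ± 0.17 and 3.65 ± 0.15, and neither passed between LTbR-KO and WT stroma (0.28 with a 95% interval of -0.09 to 0.66, and 0.21 with -0.11 to 0.53). Connexin 37 (Gja4), an arterial gap junction protein, read 8.44 and 8.58 in LTbR-KO stroma, 10.27 and 10.09 in WT stroma and 5.22 and 4.97 in splenocytes. LTbR-KO stroma was 10.6-fold above splenocytes and 3.19-fold below WT stroma. Endothelin 1 (Edn1), a vasoconstrictor peptide, was at least 3.26-fold above splenocytes, with 7.04 and 6.11 in LTbR-KO stroma, 8.56 and 8.10 in WT stroma and 4.42 and 4.44, not detected, in splenocytes. The Notch target Nrarp was the member that did not exceed splenocytes, at 6.73 and 6.91 in LTbR-KO stroma, 7.86 and 7.64 in WT stroma and 6.70 and 6.56 in splenocytes (0.19, 95% interval -0.15 to 0.52). In all, 14 of the 20 genes were lower in LTbR-KO than in WT stroma and none higher.

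The sinusoidal endothelium list was more mixed, with 10 of 15 tested genes higher, 2 lower and a median of 0.72, and 6 higher and 2 lower of the 11 detected on all 4 arrays. The scavenger receptors Stab1 and Stab2 did not pass the test between the stromas. Stab2 read 11.21 and 11.15 in LTbR-KO stroma, 11.53 and 11.36 in WT stroma and 7.93 and 7.73 in splenocytes, and Stab1 was at least 10.6-fold above splenocytes. LTbR-KO minus WT stroma was -0.26 for Stab2 (95% interval -0.61 to 0.08) and 0.19 for Stab1 (-0.24 to 0.62). The lectin Clec4g (LSECtin) was 4.04-fold above splenocytes but 6.88-fold below WT stroma, at 8.06 and 8.20 in LTbR-KO stroma, 10.94 and 10.88 in WT stroma and 6.24 and 5.98 in splenocytes. Ehd3, an endocytic recycling protein, and the complement regulator Cd55 were lower than in splenocytes, at -1.15 ± 0.17 and -0.98 ± 0.17.

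The chemokines, addressins and cytokines by which lymphoid stroma organizes lymphocytes were mostly above splenocytes in LTbR-KO stroma. Of 27 listed genes 19 were tested, 17 were higher, 1 was lower and 1 was not called, with a median of 2.09, and 11 of the 12 detected on all 4 arrays were higher. In WT stroma all 19 were higher, with a median of 3.28. Between the stromas 13 were lower in LTbR-KO and none was higher. Many of these genes are known targets of LTbR, so the list is not independent of the genotype. The list also holds receptor genes. Ltbr itself, whose probe is no check of the genotype, is counted among the 17 higher members (1.47 ± 0.20).

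**Figure D3:**
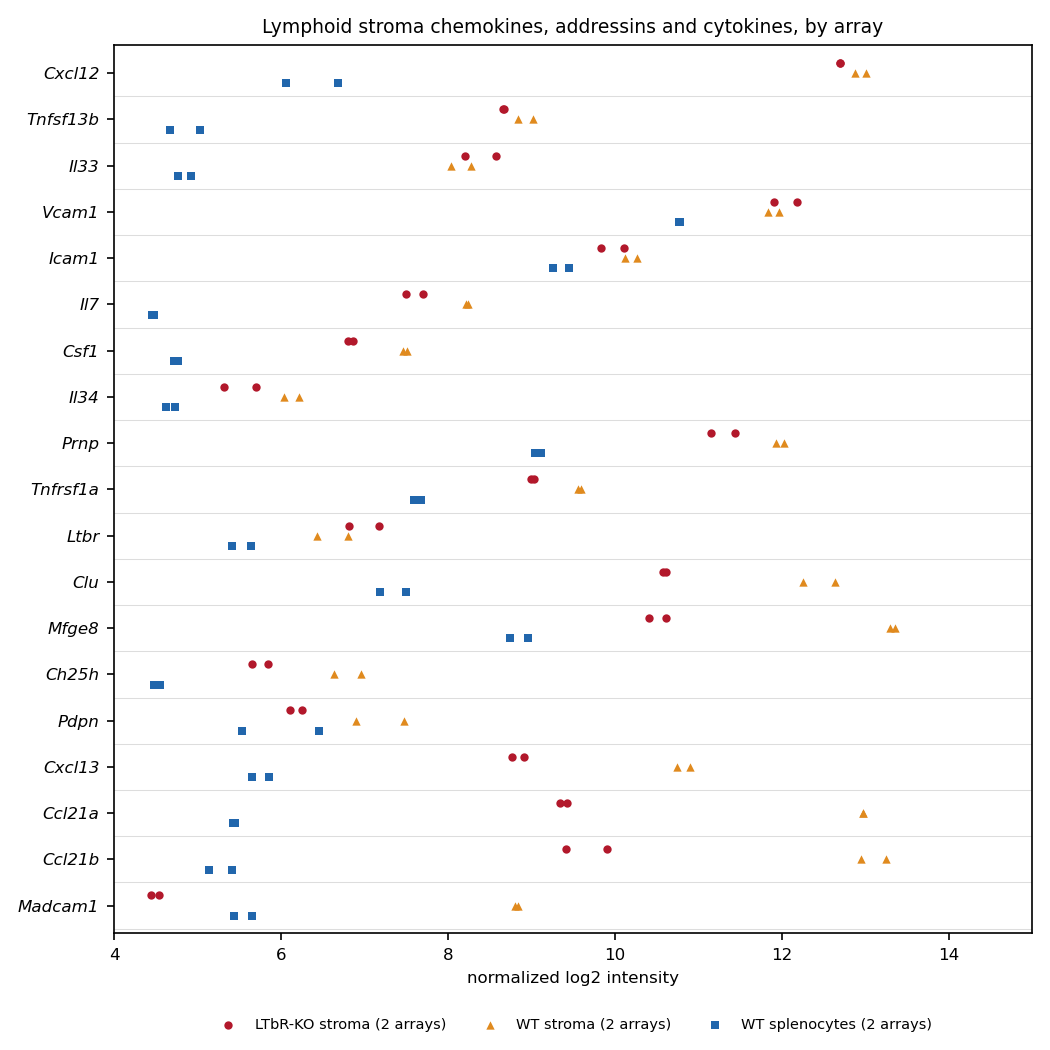
Normalized log2 intensity of the 19 tested lymphoid stroma genes on each array of LTbR-KO stroma (circles), WT stroma (triangles) and WT splenocytes (squares). Cxcl12, Tnfsf13b, Il33 and Vcam1 lie near the WT stroma level, Ccl21a, Ccl21b and Cxcl13 between WT stroma and splenocytes, and Madcam1 below both.

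The genes whose level stayed near WT stroma came from different roles. Cxcl12, the chemokine that holds plasma cells and progenitors, read 12.70 and 12.70 in LTbR-KO stroma, 12.88 and 13.02 in WT stroma and 6.68 and 6.06 in splenocytes, 80.3-fold above the splenocytes. Tnfsf13b, which encodes the B cell survival factor BAFF, read 8.68 and 8.66 in LTbR-KO stroma, 9.02 and 8.84 in WT stroma, and 5.04 and 4.67 in splenocytes, of which 1 array detected it. The alarmin Il33 was 11.7-fold above splenocytes (3.55 ± 0.18). LTbR-KO minus WT stroma had 95% intervals of -0.68 to 0.18 for Cxcl12, -0.65 to 0.13 for Tnfsf13b and -0.16 to 0.64 for Il33. The study counts Cxcl12 (as Sdf1) and Tnfsf13b (as Baff) among known LTbR targets but states that technical reasons kept this array from assessing them. It does not say what these reasons were, so the values of both genes are given with that limit. The adhesion molecule Vcam1, which red pulp macrophages share, stood at 11.90 and 12.18 in LTbR-KO stroma, 11.96 and 11.83 in WT stroma and 10.77 and 10.78 in splenocytes, 2.40-fold above the splenocytes.

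The homeostatic chemokines of the white pulp were in between. Ccl21a, which draws T cells and dendritic cells through CCR7, read 9.34 and 9.43 in LTbR-KO stroma, 12.98 and 12.97 in WT stroma and 5.45 and 5.42 in splenocytes. It was thus 15.4-fold above splenocytes (adjusted p = 4.61e-09), and LTbR-KO minus WT stroma was -3.59 ± 0.14 (adjusted p = 1.71e-07). The near-identical copy Ccl21b gave 9.91 and 9.41, 13.25 and 12.95, and 5.13 and 5.42 in the same order, and probes of this family may read each other's transcripts. Cxcl13, which draws B cells to follicles, read 8.77 and 8.92 in LTbR-KO stroma, 10.90 and 10.75 in WT stroma and 5.86 and 5.65 in splenocytes, 8.51-fold above the splenocytes and 3.94-fold below WT stroma. Il7, the survival cytokine of T cells, was at least 6.67-fold above splenocytes and 1.55-fold below WT stroma (-0.63 ± 0.15, adjusted p = 0.0233).

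Clusterin and the next 2 genes, examples from the same list, were in between as well. Clusterin (Clu), a secreted chaperone, read 10.62 and 10.57 in LTbR-KO stroma, 12.64 and 12.26 in WT stroma and 7.50 and 7.19 in splenocytes, 9.52-fold above the splenocytes and 3.61-fold below WT stroma. Mfge8, which bridges dying cells to phagocytes, read 10.61 and 10.41 in LTbR-KO stroma, 13.36 and 13.30 in WT stroma and 8.96 and 8.74 in splenocytes. Its 7.06-fold difference from WT stroma stood beside a 3.16-fold difference from splenocytes. The prion protein gene Prnp, at 2.21 ± 0.15 above splenocytes, was 1.61-fold below WT stroma.

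Madcam1, the addressin of the marginal sinus and of high endothelial venules, was the member below splenocytes. It was not detected on either LTbR-KO array (4.54 and 4.44), against 8.84 and 8.81 in WT stroma and 5.44 and 5.65 in splenocytes. LTbR-KO stroma was at least 1.59-fold below splenocytes (adjusted p = 0.000141) and at least 15.4-fold below WT stroma (adjusted p = 9.89e-08). The groups did not overlap in either comparison, though the splenocyte level was itself close to the lowest detectable signal, between 4.82 and 4.93 on the 4 arrays compared.

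Transcription factors of splenic stroma were higher in 26 of 30 tested genes of 49 listed, with 1 lower and a median of 1.31, and in 12 of the 13 detected on all 4 arrays. Nfib led at 8.82 and 8.41 in LTbR-KO stroma, undetected at 4.68 and 4.81 in splenocytes, at least 13.4-fold apart. Nkx2-3, a homeobox factor that the spleen and its vessels need for their patterning, read 8.22 and 8.16 in LTbR-KO stroma, 9.36 and 9.39 in WT stroma and 4.52 and 4.45, not detected, in splenocytes. It was at least 10.0-fold above splenocytes and 2.28-fold below WT stroma (adjusted p = 0.000374). Wt1, needed for the spleen to form, was 9.38-fold above splenocytes and -0.24 from WT stroma (95% interval -0.62 to 0.14). Gata4, which is known from sinusoidal endothelium of the liver, was not detected on the LTbR-KO arrays and was at least 1.72-fold below splenocytes (5.79 and 5.53). WT stroma did not have it detected either (4.36 and 4.47), and LTbR-KO minus WT stroma was 0.04 (95% interval -0.29 to 0.38). The organ determinant Tlx1 was not detected on both arrays of either group. Between the stromas 16 of the 30 were lower in LTbR-KO and none higher, with Msc and Foxs1 the furthest apart, at -2.07 ± 0.16 and -2.02 ± 0.20.

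Of 41 listed nerve and Schwann cell genes 13 were tested, of which 9 were higher and 1 lower, with a median of 0.97. Of these, 6 entered the test through LTbR-KO stroma alone, and of the 7 detected on all 4 arrays 3 were higher, 1 was lower and 3 were not called. The small chaperone Cryab and the myelin protein Pmp22, with differences of 4.52 ± 0.16 and 3.80 ± 0.16 and neither detected in splenocytes, are expressed in muscle and fibroblasts as well. Sncg, a synuclein of peripheral neurons, was at least 4.17-fold higher, at 6.96 and 6.90 in LTbR-KO stroma and 4.71 and 4.52 in splenocytes. The Schwann cell factor Sox10 read 5.21 and 6.14 in LTbR-KO stroma, 6.90 and 6.56 in WT stroma and 4.45 and 4.35, not detected, in splenocytes. Rtn1, a neuronal reticulon, was lower than in splenocytes, at -0.48 ± 0.15, a call that was lost under 5 of the alternative settings. In total 7 of the 13 were lower in LTbR-KO than in WT stroma and none was higher. Of 22 listed mesothelial genes 8 were tested, of which 4 were higher and 1 lower, with a median of 0.38, and of the 4 detected on all 4 arrays 1 was higher and 1 lower. Wt1, which is on both lists, led the rises, whereas the defining markers were low, since Msln (mesothelin) was detected on 1 of the 2 LTbR-KO arrays (4.70 and 5.01) and on both splenocyte arrays (5.14 and 5.10) and Upk3b did not enter the test. Of the adipocyte list 7 of 13 tested genes were higher and 1 lower, but 5 entered the test through LTbR-KO stroma alone, and of the 7 detected on all 4 arrays 2 were higher and 5 not called. Adipoq (adiponectin) was at least 2.12-fold above splenocytes, with 5.56 and 6.35 in LTbR-KO stroma, and Plin1 did not enter the test. Among the named genes detected on all 4 arrays 21.2% were higher and 24.3% lower. The small counts of the mesothelial and adipocyte lists are thus not read as a result.

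Lymphocyte genes were lower in LTbR-KO stroma than in splenocytes, yet far from absent. Of 25 tested B cell genes, all detected on the 4 arrays, 12 were lower, 2 higher and 11 not called, with a median of -0.54, against 22 lower and 1 higher in WT stroma, where the median was -1.35. Cd79a, a chain of the B cell receptor complex, read 11.82 and 12.21 in LTbR-KO stroma, 10.14 and 10.44 in WT stroma and 12.07 and 12.30 in splenocytes. LTbR-KO stroma and splenocytes overlapped (-0.17, 95% interval -0.56 to 0.22), though scaling to the 75th percentile gave -0.80 (adjusted p = 0.00388), whereas LTbR-KO stroma exceeded WT stroma 3.31-fold (adjusted p = 0.000189). Ms4a1, which encodes CD20, had 7.40 and 7.29, 6.44 and 6.46, and 7.69 and 7.66 in the same order (LTbR-KO minus splenocytes -0.33, adjusted p = 0.0685, and 0.0282 with a larger offset). The number of lower B cell genes ranged from 7 to 18 over the alternative settings, and of the 2 higher genes Ebf1 lost the call without LTbR-KO stroma replicate 1 or 2 (adjusted p = 0.0564 and 0.0579) and without splenocyte replicate 1 (0.153). Vpreb3 and Pou2af1, both of B cell development and activation, were among the genes that fell, with differences of -1.81 ± 0.16 and -1.77 ± 0.15. In all, 17 of the 25 were higher in LTbR-KO than in WT stroma and none was lower, against 5.82% higher among all named genes. The summed intensity was 30900 and 30500 in LTbR-KO stroma, 15700 and 16300 in WT stroma and 37600 and 39600 in splenocytes.

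T and NK cell genes were further down. Of 32 tested, 24 were lower, 1 was higher and 7 were not called, with a median of -0.96, and of the 27 detected on all 4 arrays 21 were lower and none higher. The T cell receptor chain Cd247 read 5.21 and 4.92 in LTbR-KO stroma, detected on 1 array, and 7.52 and 7.45 in splenocytes (-2.42 ± 0.15). Nkg7, a granule protein of cytotoxic cells, had 8.43 and 8.38 in LTbR-KO stroma and 10.84 and 10.76 in splenocytes, and the NK receptor Klre1 5.05 and 5.38 against 7.66 and 7.55. Cd3e was at 9.46 and 9.98 in LTbR-KO stroma, 8.68 and 8.60 in WT stroma and 10.86 and 10.65 in splenocytes. The co-stimulator Icos was the exception, at least 1.35-fold higher than in splenocytes (adjusted p = 0.0225, 0.138 without LTbR-KO stroma replicate 2 and 0.163 without splenocyte replicate 2). Here too LTbR-KO exceeded WT stroma, in 19 of the 32 genes, with Klre1 lower. Summed intensities were 12200 and 12500 in LTbR-KO stroma, 6060 and 6480 in WT stroma and 24400 and 23400 in splenocytes. Of 16 plasma cell genes 8 were lower and 2 higher, and of the 14 detected on all 4 arrays 7 were lower and 2 higher. The higher ones, Hsp90b1 and Xbp1, both lost the call without splenocyte replicate 1 (adjusted p = 0.0687 for each), without splenocyte replicate 2 (0.0576 and 0.0582) and with 75th percentile scaling (0.309 and 0.973). The largest fall was that of Mzb1, a chaperone of antibody secretion, at 10.07 and 9.95 in LTbR-KO stroma against 12.01 and 12.03 in splenocytes.

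**Figure D4:**
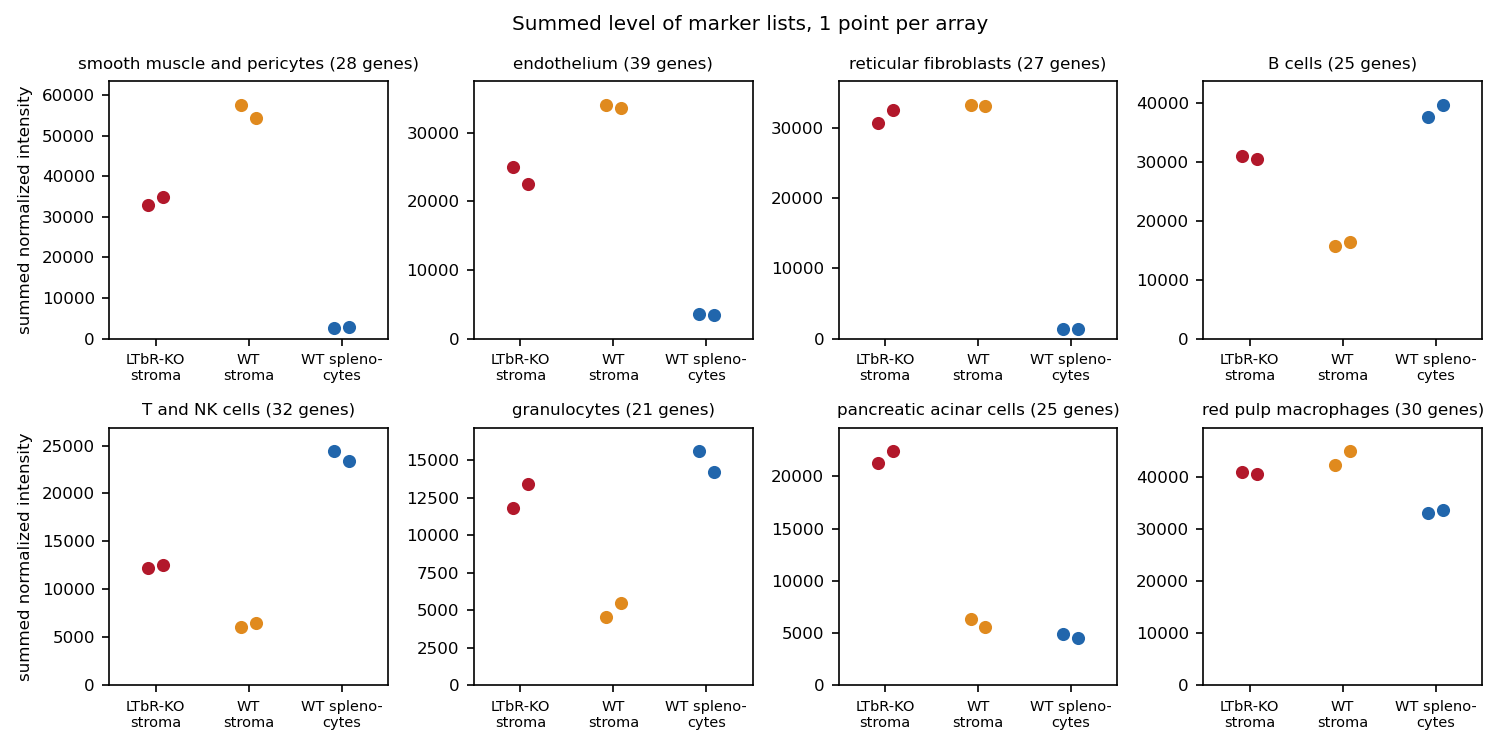
Summed normalized intensity of the tested genes of 8 marker lists, 1 point per array, in LTbR-KO stroma, WT stroma and WT splenocytes. The sums are linear, so the brightest members of a list weigh most. Smooth muscle and endothelial sums are highest in WT stroma, lymphocyte and granulocyte sums lie between WT stroma and splenocytes in LTbR-KO stroma, and the pancreatic acinar sum is highest in LTbR-KO stroma.

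Granulocyte genes went both ways. Of 21 tested granulocyte genes 9 were higher and 9 lower in LTbR-KO stroma, and of the 19 detected on all 4 arrays 9 were higher and 7 lower. Myeloperoxidase (Mpo) read 9.63 and 9.59 in LTbR-KO stroma, 8.87 and 8.94 in WT stroma and 7.07 and 6.85 in splenocytes (2.65 ± 0.14), and the serine proteases Prtn3 and Ctsg differed from splenocytes by 1.52 ± 0.15 and 1.39 ± 0.17. Among the lower ones, Retnlg was at -2.15 ± 0.20, S100a9 at -1.61 ± 0.26 and Ngp at -1.25 ± 0.15. Ngp, of neutrophil granules, had 8.52 and 8.81 in LTbR-KO stroma, 6.94 and 6.88 in WT stroma and 9.94 and 9.90 in splenocytes. The antimicrobial peptide gene Camp was among the higher ones, at 0.73 ± 0.14. In total 16 of the 21 genes were higher in LTbR-KO than in WT stroma and 1 was lower. Megakaryocyte and platelet genes were higher than in splenocytes in 14 of 19 and lower in 2, with a median of 1.20. Of the 12 detected on all 4 arrays 8 were higher and 1 lower. WT stroma likewise had 14 higher than in splenocytes and 2 lower, with a median of 1.05. Between the stromas 2 were higher in LTbR-KO and 5 lower. In LTbR-KO stroma against splenocytes, 2 genes stood out. The platelet ATP receptor P2rx1, at 7.35 and 7.48 in LTbR-KO stroma and 4.77 and 4.83 in splenocytes, of which 1 array detected it, and the chemokine Ppbp, at 9.29 and 9.17 against 7.12 and 6.72, had the largest differences (2.61 ± 0.14 and 2.31 ± 0.16). Erythroid genes went both ways, with 11 of 28 higher (7 without LTbR-KO stroma replicate 2 and 7 without splenocyte replicate 2) and 9 lower, from Kel, a blood group protease, at 2.11 ± 0.15 to carbonic anhydrase 2 (Car2) at -2.53 ± 0.19.

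Macrophage genes were close to the splenocyte level. Of 30 tested red pulp macrophage genes 12 were higher, 5 lower and 13 not called, with a median of 0.27, and of the 28 detected on all 4 arrays 10 were higher and 5 lower. The phagocytic receptors Mertk and Axl were 2.97-fold and 2.83-fold higher, whereas Spic, the factor that red pulp macrophages need, and the ferritin chain Fth1 were lower, at -0.96 ± 0.16 and -1.30 ± 0.16. The complement gene C1qa was not called (0.30, 95% interval -0.01 to 0.62), but was called higher with no background correction (adjusted p = 0.028), a larger offset (0.0309) or no detection filter (0.0299). Of 15 listed marginal zone macrophage genes 7 were tested, with 1 higher, 2 lower and 4 not called, and of the 5 detected on all 4 arrays 1 was higher and 1 lower. The higher one, the scavenger receptor Marco (0.55 ± 0.20, adjusted p = 0.0377), lost the call under 6 of 15 alternative settings, with an adjusted p of 0.0555 without LTbR-KO stroma replicate 1, 0.148 without LTbR-KO stroma replicate 2 and 0.303 without splenocyte replicate 2. Siglec1 (CD169), of the metallophilic macrophages, read 5.25 and 5.10 in LTbR-KO stroma, 7.43 and 7.83 in WT stroma and 4.99 and 4.85 in splenocytes. It did not pass the test against splenocytes (0.26, 95% interval -0.18 to 0.69), though it did with cyclic loess (0.62, adjusted p = 0.0218), and was 5.46-fold below WT stroma (adjusted p = 4.56e-05). The lectin Cd209b (SIGN-R1) was not detected in LTbR-KO stroma (4.52 and 4.80), against 6.21 and 5.96 in WT stroma and 5.37 and 4.95 in splenocytes, and its call against splenocytes (adjusted p = 0.0464) was lost under 9 of the alternative settings. Of the 7 genes, 5 were lower in LTbR-KO than in WT stroma. Dendritic cell genes gave 2 higher, 3 lower and 14 not called of 19, with 6 lower under 75th percentile scaling and 1 lower without splenocyte replicate 2, and of the 18 detected on all 4 arrays 2 were higher and 3 lower.

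Pancreatic acinar genes were higher in LTbR-KO stroma than in splenocytes in 24 of 25 tested, and 20 of the 20 detected on all 4 arrays. They were also higher than in WT stroma in 24 of 25, while WT stroma exceeded splenocytes in 2 genes. The amylase Amy2a5 was 5.91-fold above splenocytes, the chymotrypsinogen Ctrb1 read 11.85 and 12.01 in LTbR-KO stroma, 10.36 and 9.67 in WT stroma and 9.62 and 9.36 in splenocytes, and Pnliprp1, a lipase-related protein, differed from splenocytes by 2.38. The exception was Bhlha15, a factor of secretory cells that plasma cells share, at -0.76 ± 0.15. Summed intensities were 21300 and 22400 in LTbR-KO stroma, 6370 and 5580 in WT stroma and 4900 and 4540 in splenocytes. The pancreas lies against the spleen, and the part of this RNA in other differences was not tested.

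Among named genes detected on all 4 arrays, the largest falls after glutaredoxin (Glrx) were Ube2l6, an enzyme of ISG15 conjugation, C1qbp, a mitochondrial matrix protein, and Btg1, an antiproliferative factor of resting lymphocytes. Ube2l6 read 7.04 and 6.91 in LTbR-KO stroma and 9.78 and 9.59 in splenocytes, C1qbp 6.57 and 6.38 against 9.15 and 9.10, and Btg1 9.01 and 8.41 against 11.13 and 11.59. None of these 3 genes passed between LTbR-KO and WT stroma, with 95% intervals of -0.25 to 0.46, -0.55 to 0.30 and -0.11 to 0.91. Glrx behaved otherwise, at 5.29 and 5.87 in LTbR-KO stroma, 9.03 and 9.17 in WT stroma and 9.57 and 9.21 in splenocytes, a difference of -3.81 ± 0.21 from splenocytes, and 11.5-fold below WT stroma. Erdr1, by the brighter of its 2 tested probes, was the brightest named splenocyte gene not detected in LTbR-KO stroma. This probe read 4.46 and 4.55, not detected, in LTbR-KO stroma, 10.93 and 10.63 in WT stroma and 10.10 and 9.73 in splenocytes. LTbR-KO stroma was at least 33.0-fold below the splenocytes. Arrdc3, at least 3.22-fold below splenocytes, had 4.50 and 4.58 in LTbR-KO stroma, not detected, 6.49 and 6.63 in WT stroma and 6.62 and 6.50 in splenocytes, where the last 2 groups overlapped. Most of the largest falls could not be named. Of the 50 probes that fell furthest 46 carried no gene symbol, against 7 of the 50 that rose furthest and 1502 of all 11396.

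Interferon response genes were lower or not called with 1 exception. Of 27 tested interferon response genes 14 were lower (9 without splenocyte replicate 2), 1 higher and 12 not called, with a median of -0.48, and of the 21 detected on all 4 arrays 11 were lower and 1 higher. WT stroma was much the same against splenocytes, with 15 of the 27 lower, 3 higher and a median of -0.47. Between the stromas 2 were higher in LTbR-KO and 2 lower. The immunoproteasome subunit Psmb8 read 7.24 and 7.46 in LTbR-KO stroma and 8.78 and 8.96 in splenocytes. The chemokine Cxcl9, at 9.65 and 9.65 against 7.65 and 7.52, was the gene that was higher in LTbR-KO stroma than in splenocytes. Of 26 immediate early and stress genes 9 were lower (5 without splenocyte replicate 1 and 5 without splenocyte replicate 2) and 6 higher, and of the 24 detected on all 4 arrays 7 were lower and 6 higher. They ran from Klf2, a factor of quiescent T cells and endothelium, at -1.59 ± 0.19, to the small heat shock protein Hspb1, which muscle expresses, at 3.76 ± 0.16. Among all named genes 24.3% were lower and 25.3% higher, so the counts of this list are not read as a result. Cell cycle genes were near 0, with 4 higher, 5 lower and 21 not called of 30. Of 12 complement genes 7 were higher and 1 lower, and of the 9 detected on all 4 arrays 4 were higher and 1 lower.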

How the data were processed

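RNA of fresh splenic stroma and of splenocytes was hybridized to Illumina MouseRef-8 beadchips, 2 arrays for each of 4 groups. The authors deposited a table of bead signals, a linear intensity as GenomeStudio read it, not normalized, and a second intensity table, background-subtracted and cubic spline-normalized, which served as an alternative only. The authors also deposited a detection p-value for each probe and array, taken in GenomeStudio against the negative control beads. From the bead signals, log2 values were made by normexp background correction (control statistics inferred through the detection calls), an added offset of 16 and quantile normalization (neqc of limma 3.58.1, R 4.3.3). Group means of all 8 arrays were fitted with lmFit and eBayes (4 residual and 6.54 prior degrees of freedom), with Benjamini-Hochberg adjustment across the 11396 probes. Errors are standard errors of the fit. The number of arrays limits the precision. The procedure was tested on simulated data.

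Gene symbols came from the platform annotation, which gave 20984 of 24613 probes 1 symbol, 1 probe several and 3628 none, and 20968 probes matched a RefSeq gene. Of 949 genes in 29 lists, 835 had a probe and 597 were tested. In 69 of 1235 genes with several tested probes, probes were called in opposite directions. The rule for named genes took those that the paper names for the arrays, the 10 largest rises and falls among genes detected in both groups, the 10 brightest genes of each group not detected in the other, and in each list the 3 largest changes each way and members that did not pass. Not every gene that the rule took is named in the text, and other genes are examples picked after their values were seen. Members, lists and tests were chosen with earlier results of these data known.

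Alternatives covered scaling, background, offset, detection limit, fold limit, samples in the fit, replicate block and arrays left out.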

Additional observations from a re-analysis of the deposited data

Results flagged for a closer look

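In 9 genes of the lists or named by rule, LTbR-KO stroma and WT stroma were called on opposite sides of splenocytes (28 probes in all, named or not). A difference between the stromas follows from this choice, so its size is given as a description. Lower than splenocytes in LTbR-KO stroma and higher in WT stroma were 7 of them. Erdr1 was -6.27 in LTbR-KO minus WT stroma, and Madcam1 -4.33. The value of Erdr1 is that of the brighter of its 2 tested probes, and the other was not called on opposite sides. The macrophage lectin Cd209b differed by -1.43, the eosinophil granule gene Prg3 by -1.37, the interferon-induced Oas2 by -1.34 and Mx2 by -0.83, and the reticulon Rtn1 by -1.06. Erdr1, Madcam1, Cd209b and Prg3 were not detected on either LTbR-KO array. The call of LTbR-KO stroma against splenocytes was lost under 12 of 15 alternative settings for Mx2, 9 of 14 for Cd209b, 5 of 15 for Rtn1, 4 of 15 for Oas2 and 1 of 14 for Prg3, and for Erdr1 and Madcam1 under none.

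Higher than splenocytes in LTbR-KO stroma and lower in WT stroma were 2 genes of granulocytes. The antimicrobial peptide Camp differed between the stromas by 1.54, at 11.31 and 11.30 in LTbR-KO stroma, 9.71 and 9.83 in WT stroma and 10.54 and 10.60 in splenocytes. Haptoglobin (Hp) differed by 1.98, at 9.04 and 8.73, 6.90 and 6.91, and 7.90 and 7.75 in the same order. These are values of the brighter of the 2 tested Hp probes, and the other was not called on opposite sides. Against splenocytes the call of Camp was lost under 75th percentile scaling (0.24, adjusted p = 0.268).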

How the results depend on the processing

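Probes higher in LTbR-KO stroma numbered 1984 to 2355 with 1 of the 4 arrays left out and those lower 2543 to 2914, and across the other settings without a fold limit 2257 to 2704 were higher and 2863 to 3356 lower. A limit of 2-fold left 1260 higher and 1358 lower. Calls were 48.6% higher with cyclic loess and 41.6% with 75th percentile scaling, against 43.8%. With 1 array left out, the spread of the remaining array was assumed to be that of the other groups.

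Same-numbered arrays deviated against each other (the correlation of replicate 1 minus replicate 2 between LTbR-KO stroma and splenocytes was -0.143), so the numbers do not show a pairing. The replicate block gave 2567 higher and 3292 lower, and crossed numbers 2499 and 3227.

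Of 192 genes, called genes kept their direction under every setting run, while up to 12 lost the call (without splenocyte replicate 2). Differences not called changed sign as follows. With 75th percentile scaling C1qa was at -0.022, Lama4 at -0.0025, Msln at 0.010 and Pecam1 at -0.18. With 1 array left out, Cd79a ranged from -0.36 to 0.022, Lama4 from -0.037 to 0.22, Npnt from -0.11 to 0.14, Pdpn from -0.27 to 0.65 and Pecam1 from -0.22 to 0.36. The cause was not tested.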
